A study of Mus musculus with 8 samples.

Results

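The genes Mbp, Mobp, Mal, Cldn11, Mog, Mag, Cnp, Sox10 and Olig2 encode proteins of the myelin sheath and transcription factors of the cells that make it. They were followed in RNA of the mouse olfactory bulb. Every noncontrol probe whose gene name in the array files is one of these symbols was taken, which gave 13 probes for the 9 genes, out of 59305 noncontrol spots with 34797 gene names. All 13 probes were well above background on each of the 8 arrays without an outlier flag, and so all belong to the 21902 probes with signal on every array, called passing probes here. Mbp and Mobp had 3 probes each and the other 7 genes had 1.

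Oligodendrocytes wrap axons of the central nervous system in myelin, a compacted membrane that speeds conduction. Their precursors go on dividing and maturing through adolescence and into adult life, and enriched housing and activity are among the conditions known to alter this process in the brain. In the olfactory bulb, the myelin lies mainly around axons of mitral and tufted cells in the deep layers and the lateral olfactory tract. The axons of the olfactory nerve layer are unmyelinated and are bundled by ensheathing glia, which also express Sox10.

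RNA came from the bulbs of male C57BL/6J offspring, 56 days old, of dams bought at gestational day 14. C-C mice were reared in standard cages and kept in clean air, and C-DE mice were reared in the same cages and inhaled diesel exhaust. EE-C and EE-DE mice were reared in a larger cage with a wheel, a shelter, blocks and tubes (environmental enrichment) and were kept in clean air or inhaled diesel exhaust, respectively. Weaning was at postnatal day 27, and exhaust at 90 µg/m3 was then given 8 h daily for 28 days, the last of them postnatal day 55. The C-C and C-DE pools held RNA of 7 mice each, the EE-C pool of 8 mice and the EE-DE pool of 9, and each pool was put on 2 one-colour Agilent arrays.

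Each group is thus 1 pool, which the authors describe as divided over its 2 arrays. By that account the spread of the 2 arrays is that of repeat hybridization, without the variation from mouse to mouse. Exposure and housing were therefore not tested and no p is given. A value below is the log2 of the background-corrected signal minus the log2 of the array's 75th percentile over noncontrol spots, so that 0 is the level of that percentile. A difference is the mean of 2 arrays of a pool minus the mean of the 2 arrays of another, with its range over the 4 pairings of their arrays. In whole-bulb RNA, fewer cells of a type and less RNA per cell cannot be told apart. All 8 arrays lay on 1 slide that was scanned as 1 image, with both standard-cage pools under one slide index and both enriched pools under the other. On the second slide index, the clean-air arrays were at 1 and 2 and the exhaust arrays at 3 and 4 in both housings. Housing and place on the slide thus cannot be told apart, and neither can exposure and place. The 75th percentile of the signal was 644 to 716 intensity units. Between 68.0% and 70.6% of noncontrol spots were well above background on 7 arrays, against 56.7% on EE-DE array 1, where the median local background was 29 rather than 21 to 24. All 20 of the 20 markers of bulb neurons looked for were well above background, as were 41 of 42 further genes of mature oligodendrocytes.

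On 7 probes the arrays of 1 pool lay apart from all others, and the 6 of these that belong to Mobp, Olig2, Cnp and Sox10 are shown by the first 30 of their 60 bases, 5′ to 3′ as the array file lists them, in lower case because no base is singled out. The 3 Mobp probes read different stretches of the gene on mouse chromosome 9 (build mm9, plus strand), at chr9:120077006-120077065, chr9:120078400-120078459 and chr9:120085150-120085209, with 8.09 kb between the outer ones. The first 2 are assigned to NM_001039365 and the last to NM_008614. The probe of Olig2 (NM_016967) lies at chr16:91228470-91228529 on the plus strand, that of Cnp (NM_009923) at chr11:100442617-100442676 on the plus strand, and that of Sox10 (NM_011437) at chr15:78985518-78985577 on the minus strand.
Mobp A_51_P291224: acccttcaccttcctcaactccaagcgtga
Mobp A_55_P1958793: gcccagatcttactccgtatctaaggttga
Mobp A_55_P1958798: gatttatcctgtctccagttatctggcact
Olig2 A_52_P223626: aagaacaacatcaaaaagttgctgtgaata
Cnp A_51_P232901: tttggtcattcctaagttcctatctccttc
Sox10 A_55_P2094729: tacagtctacctttgccttgcaccctttgc

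The differences of the myelin genes between pools were small, as were those of most genes. None of the 13 probes reached a 1.5-fold difference (0.585 on the log2 scale) in any of the 5 comparisons between pools, nor in any single pairing of arrays, and between 0.571% and 0.963% of all passing probes reached it in a comparison. The largest difference of a probe was −0.27, for Mobp in EE-DE/C-C. Over the 8 arrays, a member probe spanned 0.18 to 0.49, with a median of 0.20, against a median span of 0.24 over all passing probes. Duplicate arrays differed by an SD of 0.053 (log2) for the member probes in the C-C pool, 0.070 in the C-DE pool, 0.076 in the EE-C pool and 0.093 in the EE-DE pool, and in the same order by 0.115, 0.108, 0.168 and 0.128 for all passing probes.

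**Figure D1:**
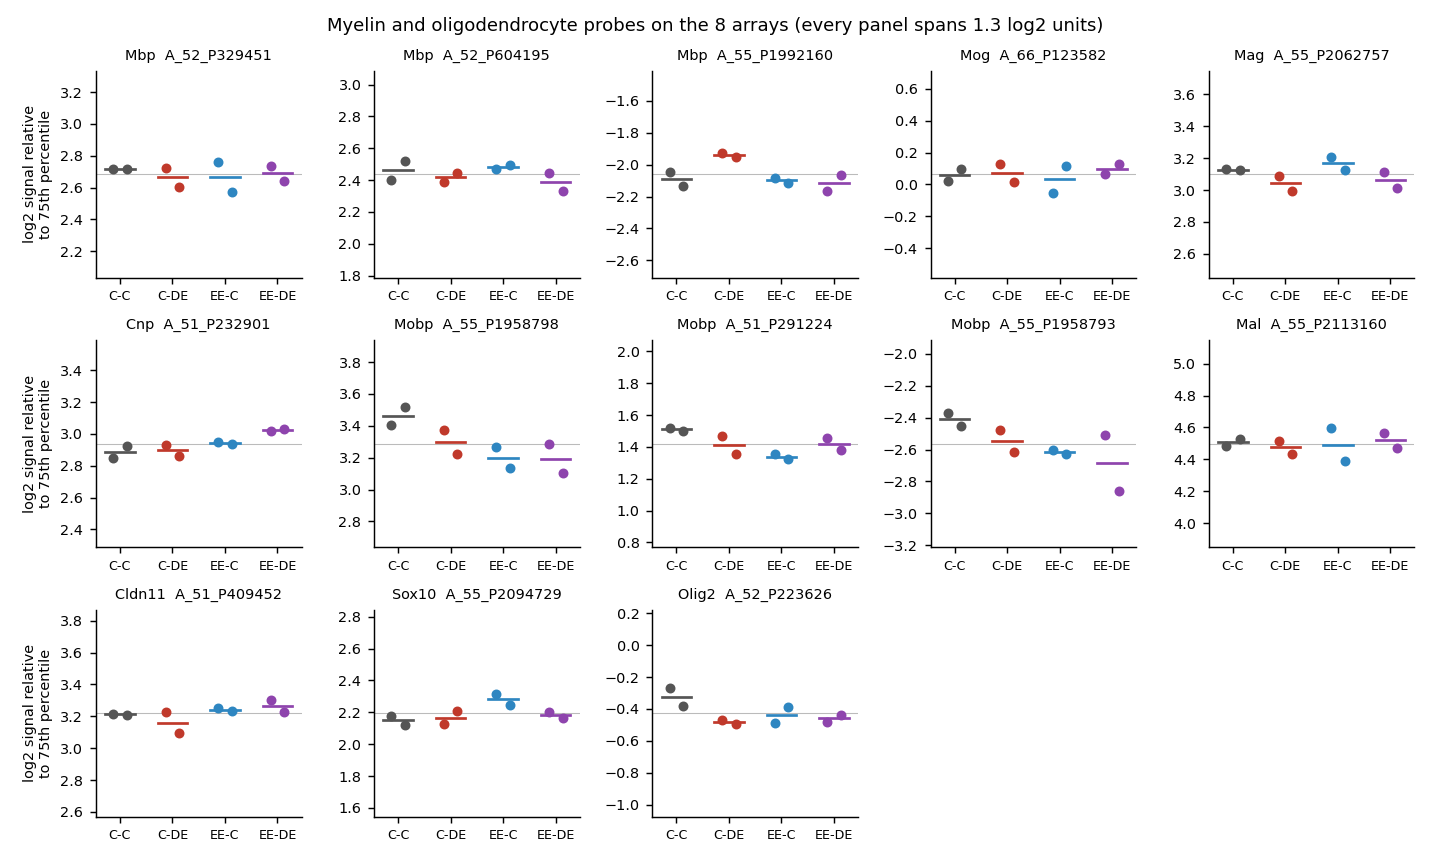
Log2 signal of the 13 probes relative to the array's 75th percentile; points are the 2 arrays of each pool, short bars their mean and the grey line the mean of 8 arrays, and every panel spans the same height. Most panels are flat; in the 3 Mobp panels and the Olig2 panel both C-C points lie above the other 6, and in the Cnp panel both EE-DE points do.

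Among the proteins that hold the myelin membrane together, Mbp (myelin basic protein), which joins the cytoplasmic faces of the sheath, was read by 3 probes spread over 50.7 kb of the gene. Probe A_52_P329451, whose 60 bases cover 2305 bases of genome and so cross a splice junction, was at 2.72 and 2.71 on the C-C arrays, 2.73 and 2.61 on the C-DE arrays, 2.76 and 2.57 on the EE-C arrays and 2.74 and 2.64 on the EE-DE arrays. Probe A_52_P604195 was at 2.40 and 2.52 on the C-C arrays, 2.39 and 2.44 on the C-DE arrays, 2.47 and 2.50 on the EE-C arrays and 2.44 and 2.33 on the EE-DE arrays. For these 2 probes, the arrays overlapped in each of the 5 comparisons made, except that the second was lower in EE-DE than in EE-C by −0.097 (pairings −0.17 to −0.028).

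The third Mbp probe, A_55_P1992160, reads a stretch 36.4 kb before the nearer of the others, in the upstream part of a locus that is known to make a second set of transcripts (golli) beside those of myelin. It was at −2.04 and −2.13 on the C-C arrays, −1.92 and −1.95 on the C-DE arrays, −2.08 and −2.11 on the EE-C arrays and −2.16 and −2.07 on the EE-DE arrays. Both C-DE arrays were above the other 6. The difference was 0.15 in C-DE/C-C (pairings 0.090 to 0.21) and −0.18 in EE-DE/C-DE (−0.24 to −0.11), while the other 2 probes of the gene differed by −0.050 and −0.045 in C-DE/C-C. The mean over the 3 probes was 0.018 in C-DE/C-C, and so does not stand for the upstream probe.

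Mobp (myelin-associated oligodendrocytic basic protein), a small basic protein of compact myelin, gave the largest differences of the set, and all of its probes had their highest values in C-C. Probe A_55_P1958798 was at 3.40 and 3.52 on the C-C arrays, 3.37 and 3.23 on the C-DE arrays, 3.26 and 3.14 on the EE-C arrays and 3.28 and 3.102 on the EE-DE arrays. Probe A_51_P291224 was at 1.52 and 1.501 on the C-C arrays, 1.47 and 1.36 on the C-DE arrays, 1.36 and 1.32 on the EE-C arrays and 1.45 and 1.38 on the EE-DE arrays. Probe A_55_P1958793 was at −2.37 and −2.45 on the C-C arrays, −2.48 and −2.62 on the C-DE arrays, −2.60 and −2.62 on the EE-C arrays and −2.51 and −2.86 on the EE-DE arrays.

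On each of the 3 Mobp probes, both C-C arrays lay above the other 6, by gaps of 0.024 to 0.032. The mean over its probes differed by −0.13 in C-DE/C-C (pairings −0.20 to −0.065), −0.21 in EE-C/C-C (−0.24 to −0.18) and −0.21 in EE-DE/C-C (−0.31 to −0.11). These 3 comparisons share the C-C arrays and are not independent of each other. Between the pools other than C-C, the pairings spanned 0: EE-DE/EE-C gave 6.0e-05 (−0.13 to 0.13) and EE-DE/C-DE gave −0.079 (−0.25 to 0.088). The fold in EE-DE/C-C was 0.864. After subtraction of each array's local median in blocks of the slide, the 3 differences from C-C were −0.090, −0.19 and −0.18, and in none of the probes, 0 of 3, were both C-C arrays still above the other 6.

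Mal (myelin and lymphocyte protein), a proteolipid that sorts membrane to the sheath, was at 4.49 and 4.53 on the C-C arrays, 4.52 and 4.43 on the C-DE arrays, 4.59 and 4.39 on the EE-C arrays and 4.56 and 4.47 on the EE-DE arrays. Cldn11 (claudin-11), which forms the tight junctions between myelin layers, was at 3.21 and 3.21 on the C-C arrays, 3.22 and 3.097 on the C-DE arrays, 3.25 and 3.23 on the EE-C arrays and 3.30 and 3.22 on the EE-DE arrays. The Mal arrays overlapped in all 5 comparisons, with differences from −0.030 to 0.043. Those of Cldn11 were apart in EE-C/C-C, at 0.029 (pairings 0.017 to 0.041), and in EE-DE/C-C, at 0.052 (0.010 to 0.094). With normexp these differences were 0.14 and 0.12. With block medians subtracted the first was 0.023 and its arrays overlapped (−0.016 to 0.061), and the second was 0.039 (0.0089 to 0.069). The largest Cldn11 difference, 0.10 in EE-DE/C-DE, had pairings from −0.00017 to 0.21, and with block medians subtracted it was 0.083 (0.00034 to 0.17).

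Of the proteins on the surfaces of the sheath, Mog (myelin oligodendrocyte glycoprotein), found on the outermost layer, was at 0.018 and 0.099 on the C-C arrays, 0.13 and 0.014 on the C-DE arrays, −0.053 and 0.12 on the EE-C arrays and 0.065 and 0.13 on the EE-DE arrays. Mag (myelin-associated glycoprotein), an adhesion molecule facing the axon, was at 3.13 and 3.12 on the C-C arrays, 3.09 and 2.99 on the C-DE arrays, 3.21 and 3.13 on the EE-C arrays and 3.11 and 3.02 on the EE-DE arrays. Mog overlapped in every comparison. Both exposed pools were lower than their unexposed counterparts for Mag, by −0.085 in standard cages (pairings −0.14 to −0.035) and by −0.10 under enrichment (−0.19 to −0.013), the latter a fold of 0.932. With block medians subtracted, the first was −0.088 (−0.14 to −0.038) and the second −0.089 (−0.18 to 0.0038). The arrays under enrichment then overlapped.

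Cnp (cyclic nucleotide phosphodiesterase), an enzyme that keeps cytoplasmic channels open in the sheath, was at 2.85 and 2.93 on the C-C arrays, 2.93 and 2.86 on the C-DE arrays, 2.95 and 2.94 on the EE-C arrays and 3.02 and 3.03 on the EE-DE arrays. Both EE-DE arrays were above the other 6. Its difference was 0.14 in EE-DE/C-C (pairings 0.089 to 0.18), 0.13 in EE-DE/C-DE (0.084 to 0.17) and, against EE-C, 0.079 (0.064 to 0.095), all of which share the EE-DE arrays. With the local block medians subtracted, the first was 0.078, the second 0.039 and the third 0.036, and the EE-DE arrays were no longer both above the other 6.

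The lineage factors were Olig2, a helix-loop-helix factor that specifies oligodendrocytes, and Sox10, which drives myelin genes at their maturation. Olig2 was at −0.27 and −0.38 on the C-C arrays, −0.47 and −0.49 on the C-DE arrays, −0.49 and −0.39 on the EE-C arrays and −0.48 and −0.44 on the EE-DE arrays. Sox10 was at 2.18 and 2.12 on the C-C arrays, 2.13 and 2.21 on the C-DE arrays, 2.32 and 2.24 on the EE-C arrays and 2.20 and 2.16 on the EE-DE arrays. For Olig2, the C-C arrays were above the other 6 by a gap of 0.0034, and for Sox10 the EE-C arrays were.

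The Olig2 difference was −0.15 in C-DE/C-C (pairings −0.22 to −0.084), −0.11 in EE-C/C-C (−0.22 to −0.0034) and −0.13 in EE-DE/C-C (−0.21 to −0.056), again with C-C shared. Sox10 differed by 0.13 in EE-C/C-C (0.064 to 0.20) and, with exhaust under enrichment, by −0.10 (−0.16 to −0.045). The direction for Sox10 depended on the background correction: with normexp, the 2 values were −0.071 and 0.019. With block medians subtracted they were 0.060 and −0.011, the block of this probe on EE-C array 1 having a median residual of 0.12. For Olig2, whose probe lies in the same block, the subtraction took EE-C/C-C to −0.18 and EE-DE/EE-C from −0.021 to 0.069. The Olig2 differences from C-C stayed below 0 under every alternative tried.

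**Figure D2:**
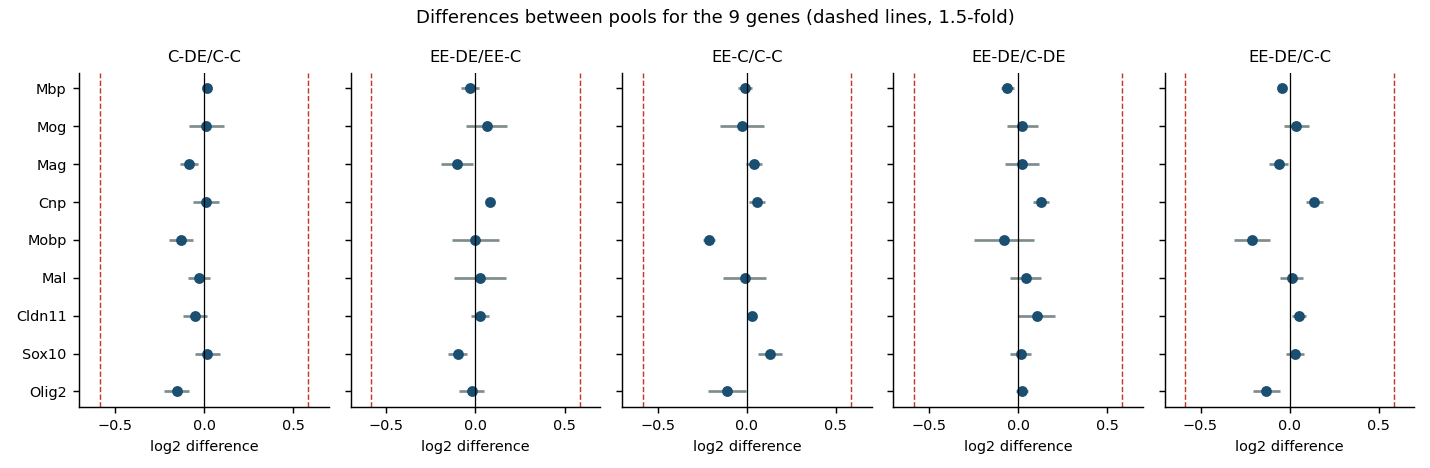
Log2 difference between pools for each of the 9 genes (mean over its probes), in the 5 comparisons; points are differences of pool means, grey lines the range over 4 pairings of arrays, and dashed lines the 1.5-fold limits. All points lie between −0.22 and 0.14, well inside the limits.

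The first question of the design is what diesel exhaust did in each housing. In C-DE/C-C, 0 of 13 member probes and 0.571% of all passing probes differed by 1.5-fold or more. The arrays of the pools did not overlap for 1 member probe that was higher in C-DE, the upstream Mbp probe, and for 5 that were lower, those of Mobp, Mag and Olig2. The shares over all passing probes were 18.6% higher and 22.4% lower. The median difference over the 9 genes was −0.030, from −0.15 for Olig2 to 0.018 for Mbp, with 4 genes above 0 and 5 below. In EE-DE/EE-C, 0 of 13 probes differed by 1.5-fold, against 0.963% of all probes. There, 2 member probes were higher without overlap (Cnp and a Mobp probe) and 3 lower (Mag, Sox10 and an Mbp probe), beside 14.6% and 19.6% of all probes. The median over the genes was 6.0e-05, from −0.10 for Mag to 0.079 for Cnp.

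The second question is what enriched housing did. In EE-C/C-C, 0 of 13 member probes and 0.836% of all probes passed 1.5-fold, and the gene median was −0.013, from −0.21 for Mobp to 0.13 for Sox10. Without overlap, 3 member probes were higher (Cnp, Cldn11 and Sox10) and 4 lower (the 3 of Mobp and Olig2), with 20.3% and 17.5% of all probes. In EE-DE/C-DE, 0 of 13 and 0.639% passed the fold, and the gene median was 0.023, from −0.079 for Mobp to 0.13 for Cnp. Here 1 probe was higher (Cnp) and 1 lower (Mbp upstream), against shares of 21.2% and 21% over all probes.

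For both conditions together, EE-DE/C-C gave 0 of 13 member probes past 1.5-fold, with 0.813% of all probes. Its gene median was 0.013, from −0.21 for Mobp to 0.14 for Cnp, and 2 probes were higher without overlap (Cnp and Cldn11) and 5 lower (the 3 of Mobp, Mag and Olig2), beside 22.2% and 24.8% of all probes. With block medians subtracted, the members without overlap, higher and lower, were 1 and 2 in C-DE/C-C (20.7% and 19.9% of all probes), 1 and 1 in EE-DE/EE-C (17.3% and 17.5%), 1 and 4 in EE-C/C-C (20.5% and 19.0%), 2 and 1 in EE-DE/C-DE (20.7% and 20.8%) and 2 and 4 in EE-DE/C-C (23.8% and 23.2%). At shares below 1% for all probes, a count of 0 among 13 is near the background and is no result about these genes. The same holds for sizes: differences were within 0.2 of 0 for 11 of 13 probes in EE-C/C-C and in EE-DE/C-C, where the 2 exceptions were Mobp probes, and for 13 of 13 in each of the other 3 comparisons. Over all passing probes, 88.3% to 91.5% were within 0.2, a share near that of the members.

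**Figure D3:**
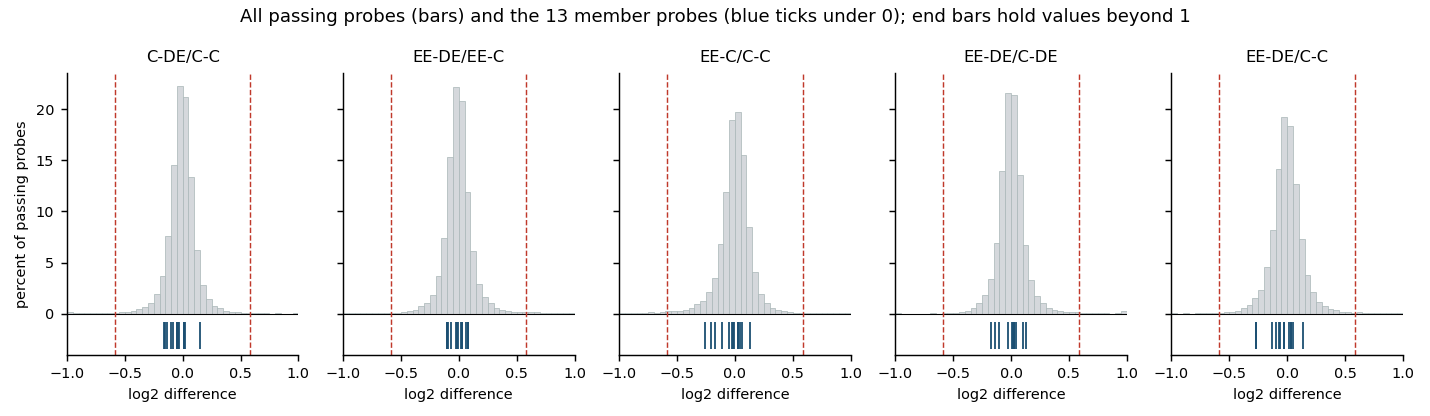
Log2 differences of all 21902 passing probes (grey bars, percent per bin) and of the 13 member probes (blue ticks) in the 5 comparisons, with 1.5-fold limits dashed. Most ticks lie near 0, and the lowest, at −0.27 in EE-DE/C-C, are Mobp probes, a size that 5.99% of all probes exceeded in that comparison.

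A pool whose 2 arrays lie above or below all 6 others was looked for probe by probe. C-C arrays were above for 4 member probes (3 of Mobp and Olig2) and below for 0, when 5.81% and 5.73% of all passing probes were so. C-DE arrays were above for 1 (Mbp upstream) and below for 0, with 3.87% and 5.27% of all probes. EE-C arrays were above for 1 (Sox10) and below for 1 (Mobp A_51_P291224), with 5.28% and 3.55%, and EE-DE arrays were above for 1 (Cnp) and below for 0, with 4.01% and 5.08%. The 3 Mobp probes read transcripts of 1 gene and are not separate cases. The count of 4 for C-C became 3 with quantile normalization, with the median as scale and with the series table, where Olig2 dropped out, 3 with normexp, where a Mobp probe did, and 1 with block medians subtracted, where Olig2 alone was left. Sox10 in EE-C was no longer apart with normexp or with block medians, and Cnp in EE-DE was not with block medians. The Mobp probe below in EE-C, which had a gap of 0.00065, was not apart with normexp, the median as scale or the series table. Mag became apart, above in EE-C, with the median as scale and the series table, and an Mbp probe, A_55_P1992160, below in EE-DE with normexp. The upstream Mbp probe in C-DE stayed apart under each alternative that kept it. A filter for the brighter 75% of spots removed it and Mobp A_55_P1958793, which left a count of 3 for C-C.

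The effect of exhaust in enriched mice minus that in standard-cage mice asks whether housing altered the response. Over the 9 genes its median was 0.056, with 6 genes above 0 and 3 below, and it ran from −0.12 for Sox10 (pairings −0.25 to 0.0082) to 0.13 for Olig2 (−0.0077 to 0.27) and 0.13 for Mobp (−0.068 to 0.33). The median size was 0.070 for the members and 0.075 over all passing probes. For each of the 9 genes the range over pairings included 0.

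Beyond the 9 genes, other genes of the lineage were read from lists. The largest held 42 genes of mature oligodendrocytes and myelin, such as Opalin, Ermn and Ugt8a, and 41 of them passed with 49 probes; Nipal4 did not. Its gene median was −0.014 with exhaust in standard cages (C-DE/C-C), 0.051 with exhaust under enrichment (EE-DE/EE-C), −0.0010 in EE-C/C-C, 0.039 in EE-DE/C-DE and 0.032 in EE-DE/C-C. The medians over all passing probes lay between −0.0073 and 0.0065. Arrays did not overlap for 17 higher and 3 lower probes of the 49 in EE-DE/EE-C, beside 14.6% and 19.6% of all passing probes. The counts were 19 and 2 in EE-DE/C-DE (21.2% and 21% of all) and 16 and 4 in EE-DE/C-C (22.2% and 24.8%). For exhaust in standard cages they were 4 and 9 (18.6% and 22.4%), and 6 and 11 in EE-C/C-C (20.3% and 17.5%). The 3 comparisons with more higher probes all hold the EE-DE arrays. Without EE-DE array 1, the array with the higher background, the counts in the same order were 18 and 11, 20 and 9, and 20 and 14, and the medians were 0.011, 0.029 and 0.024. With 1 array left in that pool the shares over all probes were 27.9% and 34.3%, 34.9% and 35.3%, and 34.2% and 38.2%, so that the higher counts were nearer to the background. Without EE-C array 1 the counts were 31 and 6 in EE-DE/EE-C (34.1% and 35.4% of all probes) and 10 and 27 in EE-C/C-C (34.3% and 36.1%).

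Within that list, Opalin, a membrane protein of myelin's inner and paranodal loops, was at −1.69 and −1.64 on the C-C arrays, −1.56 and −1.80 on the C-DE arrays, −1.55 and −1.58 on the EE-C arrays and −1.46 and −1.37 on the EE-DE arrays, where both arrays were above the rest. Carns1, which makes carnosine in oligodendrocytes, was at 0.061 and −0.057 on the C-C arrays, −0.32 and −0.26 on the C-DE arrays, −0.13 and −0.21 on the EE-C arrays and −0.044 and 0.11 on the EE-DE arrays. It was lower in C-DE than in C-C by −0.30 (pairings −0.38 to −0.21) and higher in EE-DE than in C-DE by 0.33 (0.22 to 0.43). Hapln2, a link protein of the matrix around nodes of Ranvier, was lower in C-DE than in C-C (−0.20), and in EE-C/C-C (−0.23), which share C-C.

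Ermn, a cytoskeletal protein of myelin, differed by −0.21 in EE-C/C-C (pairings −0.34 to −0.084), and Adamts4, a matrix protease of oligodendrocytes, by −0.19 (−0.33 to −0.051). Josd2, a deubiquitinase, was higher with exhaust in both housings, by 0.17 in standard cages and by 0.28 under enrichment (pairings 0.17 to 0.40). Tmem88b was higher in EE-DE/EE-C by 0.28 (0.24 to 0.32), and Arsg, a lysosomal sulfatase, in EE-DE/C-DE by 0.18 (0.083 to 0.28). Just 1 probe of the list passed 1.5-fold, that of Klk6, a secreted serine protease of oligodendrocytes. It was at −1.18 and −1.38 on the C-C arrays, −1.19 and −0.36 on the C-DE arrays, −2.41 and −1.15 on the EE-C arrays and −0.85 and −1.12 on the EE-DE arrays. The Klk6 difference in EE-DE/EE-C was 0.80 with pairings from 0.035 to 1.56, the 2 EE-C arrays being far apart, and it was 0.17 without EE-C array 1.

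The earlier stages of the lineage gave 0 probes past the fold. Of 18 genes of oligodendrocyte precursors, 17 passed with 25 probes, and their medians ran from −0.055 in EE-C/C-C to 0.043 in EE-DE/EE-C. Olig1, a partner of Olig2, was higher in EE-DE/EE-C by 0.17 (pairings 0.14 to 0.19). Gpr17, a receptor of precursors on the way to maturation, was lower in EE-C/C-C by −0.17 (−0.19 to −0.14) and in EE-DE/C-DE by −0.15 (−0.20 to −0.10). Cspg4, the NG2 proteoglycan, differed by −0.073 with exhaust in standard cages, by −0.16 with exhaust under enrichment and by 0.16 in EE-C/C-C. Neu4, a sialidase, was lower in C-DE/C-C by −0.17 (−0.27 to −0.080). The other precursor genes among the 3 largest without overlap in a comparison were Xylt1 (−0.20 in EE-C/C-C), Epn2 (−0.16 in EE-DE/C-C), Lhfpl3 (0.14 in EE-DE/C-C), Matn4 (0.13 in EE-DE/EE-C) and Sox8 (0.067 in C-DE/C-C).

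Of 18 genes of committed oligodendrocytes and lineage regulators, 17 passed with 23 probes, with medians from −0.025 to 0.00087; the exception was Myrf, listed as Gm98 on the array. Enpp6, a choline phosphodiesterase of newly forming oligodendrocytes, was at −3.35 and −3.14 on the C-C arrays, −3.42 and −3.37 on the C-DE arrays, −3.47 and −3.59 on the EE-C arrays and −3.26 and −3.26 on the EE-DE arrays. It was lower in EE-C/C-C by −0.29 (pairings −0.45 to −0.12) and higher in EE-DE/EE-C by 0.27 (0.20 to 0.33), both resting on the same EE-C arrays. Nkx2-2, a homeodomain factor of the lineage, was at −2.44 and −2.47 on the C-C arrays, −2.20 and −2.29 on the C-DE arrays, −2.16 and −2.37 on the EE-C arrays and −2.25 and −2.25 on the EE-DE arrays, so that both C-C arrays were the lowest. Lingo1, an inhibitor of differentiation, was lower in EE-DE/EE-C by −0.28 (−0.38 to −0.18). Its signal was low, at −4.23 and −4.39 on the EE-C arrays and −4.58 and −4.61 on the EE-DE arrays. The arrays of C-C (−4.34 and −4.72) and of C-DE (−4.56 and −4.19) were further apart than that difference. Bmp4, a signal that holds back maturation, was higher in EE-C/C-C by 0.25 (0.074 to 0.42). The rest by the same rule were Tmem2 (0.13 in C-DE/C-C, but −0.18 in EE-DE/C-DE), Rras2 (−0.10 in EE-DE/EE-C), Id4 (−0.10 in EE-DE/C-C) and Id2 (0.063 in EE-DE/C-C).

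Signals and partners of the sheath were measured too. Among 25 growth factors and receptors of the lineage, 21 passed with 37 probes, the others being Erbb3, Erbb4, Fgf2 and Lif, with medians from −0.022 to −0.0044, and 1 probe passed the fold. That was Notch1, a receptor that holds precursors back, in EE-C/C-C at −0.66 (pairings −0.80 to −0.52), from −0.94 and −0.94 in C-C to −1.74 and −1.47 in EE-C, and −0.52 without EE-C array 1. Its second probe did not pass the filter. Of the 37 probes, 9 were higher and 6 lower without overlap in C-DE/C-C (18.6% and 22.4% of all probes). The counts were 4 and 7 in EE-DE/EE-C (14.6% and 19.6%) and 4 and 7 in EE-C/C-C (20.3% and 17.5%). They were 6 and 11 in EE-DE/C-DE (21.2% and 21%) and 5 and 16 in EE-DE/C-C (22.2% and 24.8%). Smaller differences without overlap were those of Fgfr2 (−0.21 in EE-DE/C-C), Tyro3 (−0.16 in EE-DE/C-DE), Shh (−0.12 in EE-DE/C-C), Gas6 (−0.11 in EE-DE/EE-C) and Bdnf (−0.096 in EE-DE/C-DE). Of 15 genes of nodes and paranodes, 14 passed with 21 probes, 0 past the fold and medians from −0.034 to 0.014. Gldn (gliomedin) came closest to the fold but had a low signal. It was at −3.15 and −3.47 on the C-C arrays, −3.69 and −3.46 on the C-DE arrays, −2.98 and −3.47 on the EE-C arrays and −3.22 and −2.79 on the EE-DE arrays. The Gldn difference was 0.57 in EE-DE/C-DE (0.24 to 0.89). Kcnab2, a potassium channel subunit, was at −0.31 in the same comparison (−0.47 to −0.15), and Scn8a, a sodium channel of nodes, at −0.20 in EE-DE/C-C. The others by the rule, all smaller, were Kcna2 (0.12) and Cntn1 (0.082) in EE-DE/EE-C, Ank3 (−0.12) in EE-DE/C-C, Epb4.1l3 (−0.093) in EE-DE/C-DE, Nrcam (−0.072) in EE-C/C-C and Bcan (−0.068) in C-DE/C-C. Of the enzymes and regulators of sterol and fatty acid synthesis, which supply myelin lipid, 32 of 32 passed with 42 probes, 0 past the fold and medians from −0.033 to −0.0018. Srebf2, a regulator of sterol synthesis, was lower in EE-C/C-C (−0.17) and in EE-DE/C-DE (−0.21, pairings −0.31 to −0.11), and Lss, lanosterol synthase, was lower in EE-DE/C-DE (−0.23, −0.26 to −0.20). Other genes of the list were higher: Lass2, a ceramide synthase, by 0.27 with exhaust under enrichment (0.032 to 0.50) and 0.21 in EE-DE/C-C, Cyp51 by 0.20 in C-DE/C-C (0.052 to 0.35), Nsdhl by 0.16 in C-DE/C-C, 0.15 in EE-C/C-C and 0.18 in EE-DE/C-C, Scd1 by 0.14 in EE-DE/C-DE and Srebf1 by 0.14 in EE-DE/EE-C. Abca2 (−0.13 in EE-C/C-C) and Fads2 (−0.12 in C-DE/C-C) were lower.

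**Figure D4:**
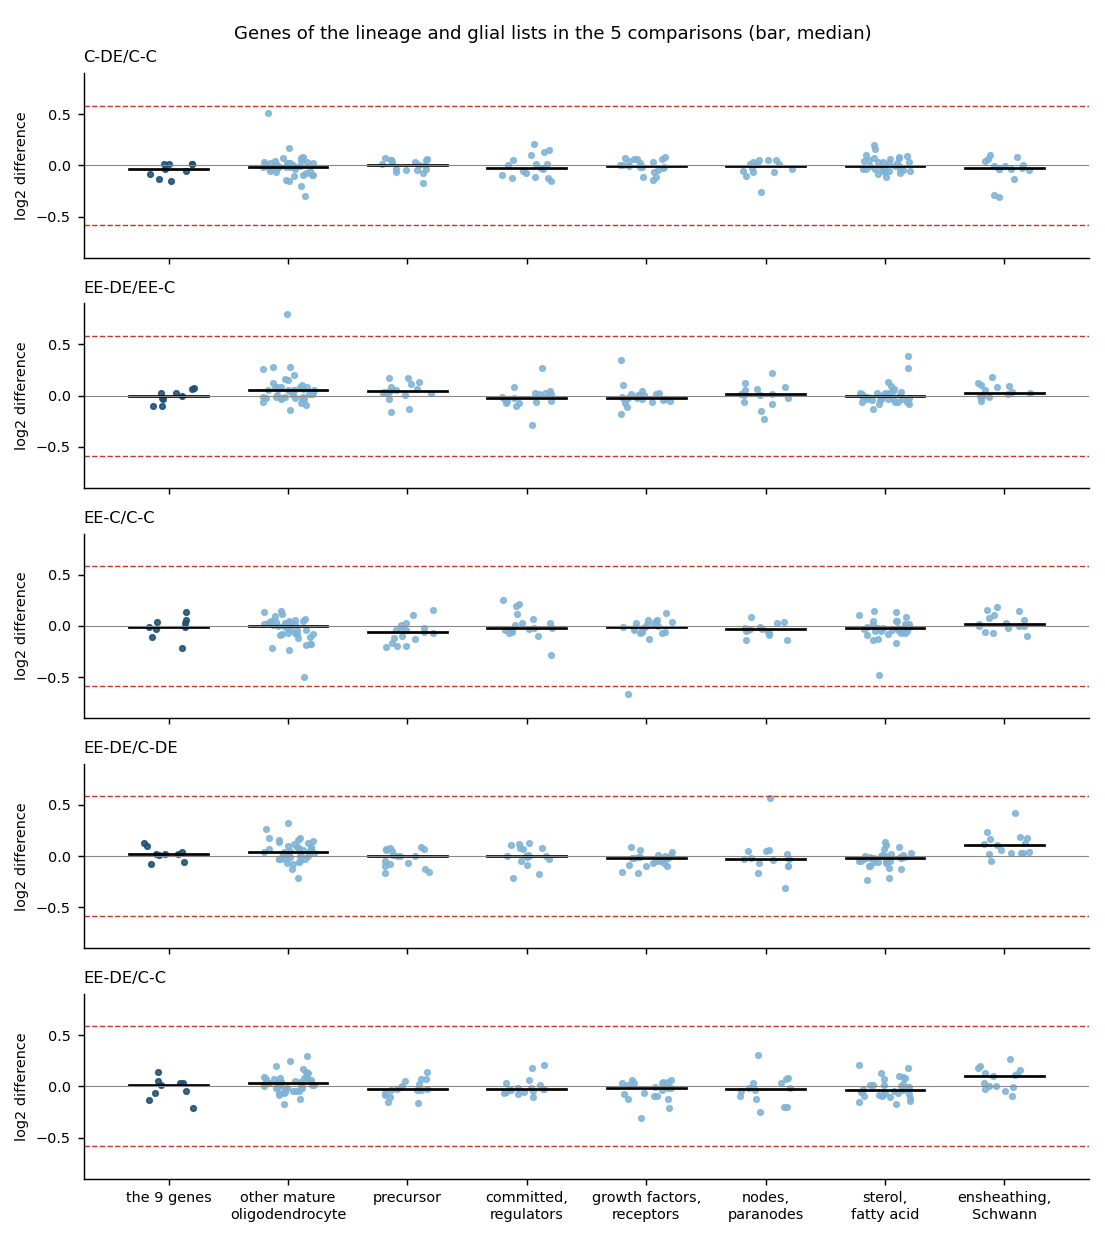
Log2 differences of single genes (points) in the 9-gene set and in 7 lists of the lineage and of ensheathing glia, by comparison, with list medians as black bars and 1.5-fold limits dashed. Points beyond the limits are Klk6 at 0.80 in EE-DE/EE-C and Notch1 at −0.66 in EE-C/C-C, and the ensheathing and Schwann cell list has its highest median, 0.11, in EE-DE/C-DE.

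Genes of other cell types that the sample could hold were read in the same way. Of 15 markers of the olfactory mucosa, 13 passed with 15 probes (not Cyp2a5 and Bpifa1). With exhaust in standard cages, 8 of these probes passed 1.5-fold (0.571% of all passing probes), all lower and without overlap: those of Cyp2g1, Cyp2f2, Krt8, Krt18, Cnga4 and Ugt2a1 and both of Sec14l3. The gene median was −0.95 (pairings −1.39 to −0.50). The same 8 passed in EE-DE/C-DE (0.639%), all higher, with a median of 1.26 (0.84 to 1.67). With exhaust under enrichment, 6 passed (0.963%), of which 4 overlapped, Cnga4 was higher and Obp1a lower, and the median of 0.58 had pairings from −0.043 to 1.41. In EE-C/C-C, 3 passed (0.836%), of which 2 overlapped and Obp1a was higher, and the median of −0.16 had pairings from −1.13 to 0.32. In EE-DE/C-C, 2 passed (0.813%) and both overlapped, with a median of 0.29 (−0.22 to 0.85). The 2 arrays of a pool differed widely for this list. Its median, each gene centred on its mean of 8 arrays, was 0.54 and −0.070 on the C-C arrays and −0.85 and −0.53 on the C-DE arrays. It was 0.30 and −0.49 on the EE-C arrays and 0.16 and 0.82 on the EE-DE arrays. Obp1a ran the other way in EE-C, at −1.97 and 1.005. The cause of these gaps was not tested. Without EE-C array 1 the medians of the differences were 1.15 in EE-DE/EE-C, against −0.80 in EE-C/C-C. Without EE-DE array 1 they were 0.91 in EE-DE/EE-C, against 0.56 in EE-DE/C-C. The summed signal of the 15 probes, in units of the array's 75th percentile, was 75.5 to 90.9 on the C-C arrays, 67.6 to 77.2 on the C-DE arrays, 79.2 to 88.5 on the EE-C arrays and 85.2 to 93.3 on the EE-DE arrays. For the 13 myelin and oligodendrocyte probes the same sum was, in this order, 79.8 to 81.8, 75.6 to 80.0, 76.6 to 82.2 and 77.0 to 81.6, so that it overlapped between all pools.

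Ensheathing and Schwann cell markers, of which 15 of 18 passed with 20 probes, were higher without overlap for 12 probes and lower for 0 in EE-DE/C-DE, where 21.2% of all passing probes were higher and 21% lower, with a median of 0.11 that was 0.046 without EE-DE array 1. Their sum was 236 to 255 on the C-C arrays, 243 to 248 on the C-DE arrays, 230 to 268 on the EE-C arrays and 241 to 253 on the EE-DE arrays. Of the 6 probes of red cell markers, 3 were lower without overlap and 0 higher in C-DE/C-C (22.4% and 18.6% of all probes), with a median of −0.22. Their medians in EE-DE/EE-C (−0.048), EE-C/C-C (0.056) and EE-DE/C-C (0.011) had pairings that spanned 0. Their sum was 196 to 217 on the C-C arrays, 164 to 187 on the C-DE arrays, 177 to 261 on the EE-C arrays and 198 to 203 on the EE-DE arrays. All 6 were higher without overlap in EE-DE/C-DE, with a median of 0.22. In that same comparison, with the same shares over all probes, where 19 probes of the mature oligodendrocyte list were higher, 13 of the 27 bulb neuron probes were lower and 2 higher, with a median of −0.047. The lists of astrocytes (12 of 12 genes passing), microglia (13 of 13), endothelium (10 of 10) and neuroblasts (7 of 8) had 0 probes past 1.5-fold, and their medians over the 5 comparisons were −0.044 to −0.0068, −0.0097 to 0.084, −0.0084 to 0.045 and −0.070 to 0.028. The part of these cell types in the differences of the myelin genes was not tested.

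**Figure D5:**
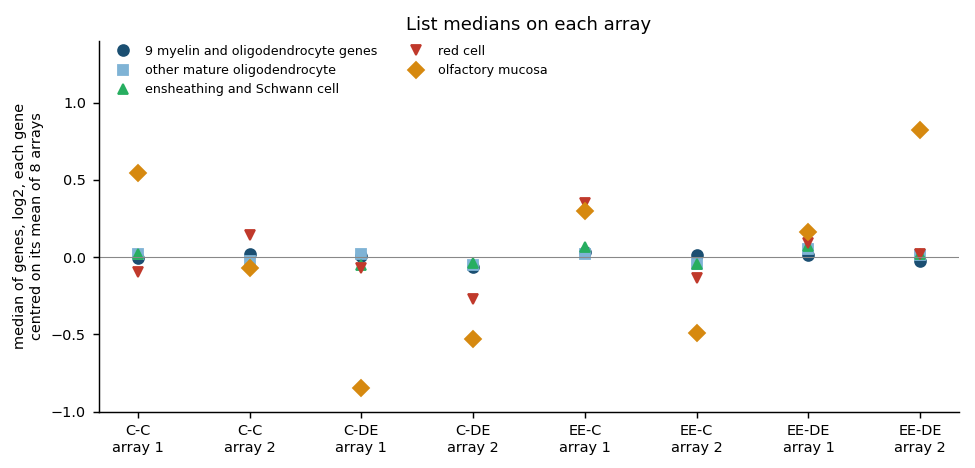
Median over the genes of 5 groups on each array, after each gene was centred on its mean of 8 arrays (log2). The 9 myelin and oligodendrocyte genes stay between −0.065 and 0.031, while the olfactory mucosa markers run from −0.85 on C-DE array 1 to 0.82 on EE-DE array 2.

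Across the 8 arrays the mean profile of the 9 genes, each centred on its own mean, spanned 0.081 (log2). The genes whose centred values lay nearest to it, by root mean square difference over 8 arrays of 4 pools, were Gltpd1 (0.011), Bag1, Dctn3, Tor1a, Pelo, Gm16515, P4ha2, Rhebl1, Rnf187 and Zfp768 (0.017), out of 16664 genes with a median of 0.077. Since the profile is almost flat, likeness to it means little more than a value that hardly varied.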

How the data were processed

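Olfactory bulb RNA of 4 groups, 1 pool each, was hybridized to 8 one-colour Agilent arrays, and the labels gave the group of each. Per the file headers, the deposited intensity of a spot is the output of Agilent Feature Extraction 10.7.3.1 after subtraction of local background and spatial trends, with no scaling between arrays. The authors also gave a series table in log2; compared with the intensities, its values are the log2 signal minus the 75th percentile, centred per probe on its median, and 99.4% of 21902 probes lay within 0.02 on all arrays.

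Here, each intensity was divided by its array's 75th percentile (noncontrol spots only) and put on the log2 scale. Spots were kept with a GenBank or RefSeq accession, a signal well above background on 8 arrays and no outlier flag (24149 spots), spots of a probe were averaged (21902 probes), and a gene was the mean of its passing probes. No spot was saturated. With 1 pool per group no test was made; the number of arrays limits the precision. A probe counted as changed at 1.5-fold. The genes named are the 9 members, list genes past 1.5-fold, up to 3 genes per lineage list and comparison with the largest difference without overlap of arrays, and the 10 genes nearest in profile; some results under this rule are not reported here. Lists of 14 cell types and pathways were written from general knowledge; the members, lists and rules were chosen with earlier results of these data known. Gene names are those of the array, and sequences and mm9 positions come from the array files.

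Alternatives were quantile normalization, normexp (offset 50), scaling to the median of passing spots, the series table, the mean of linear signals, 3 other filters on dim spots, all accessions, no outlier filter, the brightest probe, block medians subtracted over the slide (24 rows by 41 columns), a 2-fold threshold, 1.5-fold in all 4 pairings and leaving out each array. Lists without EE-DE array 1 or EE-C array 1 and with block medians were added after seeing the data. The tools were limma 3.58.1 under R 4.3.3, and pandas 2.3.3, numpy 2.4.6 and matplotlib 3.10.9 under Python 3.11.15. The calling was tested on simulated data.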

Additional observations from a re-analysis of the deposited data

Results flagged for a closer look

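The Mobp probe A_51_P291224 went in opposite directions with diesel exhaust in the 2 housings. Both exposed arrays were above both unexposed arrays in enriched mice, by 0.079 (log2, pairings 0.025 to 0.13), and below them in standard-cage mice, by −0.098 (−0.16 to −0.032). The effect in enriched mice minus that in standard-cage mice was 0.18, and this difference was not tested because each group is 1 pool. The other 2 Mobp probes differed by −0.0083 and −0.071 in enriched mice, with overlapping arrays, and by −0.16 and −0.14 in standard-cage mice. With block medians subtracted, the difference of A_51_P291224 in standard-cage mice was −0.053 and its arrays overlapped (pairings −0.11 to 0.0046), while that in enriched mice was 0.10 (0.066 to 0.14).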

How the results depend on the processing

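Member probes past 1.5-fold numbered 0 in the 5 comparisons under every alternative run. Of these alternatives, 4 filters kept all 13 probes and changed no value of theirs. Of the 470 differences of single genes that an alternative did change, 415 moved by less than the spread between arrays, 55 by more and 51 turned sign; 0 reached 1.5-fold, and the largest was −0.31, for Mobp in EE-DE/C-C without EE-DE array 1. The Mobp and Olig2 differences from C-C stayed below 0 under every alternative, and that of Cnp in EE-DE/C-C above 0 (0.078 to 0.19). The median over the 9 genes with normexp was −0.019 in EE-DE/C-DE and −0.048 in EE-DE/C-C, and the difference of the exhaust effect between housings was 0.087 with quantile normalization. Leaving out each array in turn, the medians for exhaust ran from −0.072 to 0.012 in standard cages (C-DE/C-C) and from −0.031 to 0.034 under enrichment (EE-DE/EE-C). Those for housing ran from −0.018 to 0.039 in clean air (EE-C/C-C) and from −0.0022 to 0.070 with exhaust (EE-DE/C-DE). For both together (EE-DE/C-C) they ran from −0.032 to 0.013, and for the difference between housings from 0.011 to 0.10. The cause of these shifts was not tested. No paired analysis was possible because each group is 1 pool whose array numbers are repeat hybridizations of the same RNA. Signal over background was lowest for Mobp A_55_P1958793 (5.76) and Mbp A_55_P1992160 (8.65), which limits these 2 probes most.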
